A study of Mus musculus with 14 samples.

Results

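Cells carrying the Notch1 receptor were compared with the whole retina of newborn mice (postnatal day 0, P0) across all genes measured. The comparison was made by the sample labels and holds 8 of the 14 arrays of the series, 4 for the selected cells at P0 and 4 for the whole retina at P0; the other 6 arrays, from embryonic day 14 (E14), entered the estimate of the spread and a comparison between stages. All samples came from C57BL/6 mice, and the labels give no mutation or drug. Retinas pooled from many eyes were dissociated with papain, and Notch1+ cells were bound with a biotin-conjugated antibody to Notch1 and magnetic microbeads and held on a column. Each sample of Notch1+ cells contained 200000 to 500000 cells. The sources used here do not say whether the whole retina samples also passed through papain, antibody and column. The study describes its replicates as independent biological replicates.

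Notch receptors are cut in the membrane when a Delta or Jagged ligand on a neighbouring cell binds them, and the freed intracellular part joins Rbpj in the nucleus to switch on repressors of the Hes and Hey families. In the developing retina this keeps progenitors dividing and holds back the proneural factors that start neuronal differentiation. By birth the mouse retina has made most of its ganglion cells, horizontal cells and cones, while late progenitors go on to produce rods, bipolar cells and Müller glia. A whole newborn retina thus holds progenitors together with young neurons of several classes.

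Each array measured RNA of 1 sample with 1 dye. Of 38880 spots, 34312 were mouse probes, and 23574 of these could be given 1 current gene symbol (16009 genes). The 13683 probes above background on at least 3 of the 14 arrays were tested with limma, and genes are described through 1 probe each, the tested probe with the highest mean (8881 genes). Values are normalized intensities, which are compared between arrays and never between genes. Between 9764 and 10718 probes were above background on the P0 Notch1+ arrays and between 11345 and 13547 on the P0 whole retina arrays. At an adjusted p under 0.05, 1227 probes (8.97%) were higher and 1467 (10.7%) lower in P0 Notch1+ cells, together 19.7%, and for 2352 of these 2694 one group lay wholly above the other. Called or not, 11.2% of probes lay wholly higher and 12.3% wholly lower in Notch1+ cells, and 23.3% of genes lay apart in either direction. The 15 largest rises and 15 largest falls named below were picked among called probes without overlap. For these genes, lack of overlap is therefore no further support. Counted by gene, 758 (8.54%) were higher and 1034 (11.6%) lower, 20.2% in all, with a median log2 fold change over all tested genes of -0.01. Several probes were tested for 2008 genes, and 678 of these had a called probe. In only 139 of the 678 was every probe called the same way, and 9 genes had probes called both ways. A gene's call thus often rests on 1 of several probes.

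The split between higher and lower depended on how the arrays were scaled. The quantile normalization used here gave 1227 higher and 1467 lower probes, scaling to 1 median over the probes above background on all 14 arrays gave 3418 and 1119, scaling to their 75th percentile gave 4267 and 968, and the authors' own value table gave 780 and 2273. Scaling to 1 median over all mouse probes gave 320 and 3778. These scalings move the median of all probes by between -0.38 and 0.36 on the log2 scale, so that small differences are best read against the other genes rather than against 0. The P0 Notch1+ arrays were all scanned on 1 day and the P0 whole retina arrays all on another, so that scan day and group cannot be told apart. All 4 P0 whole retina arrays and only replicate 2 of the P0 Notch1+ arrays carry a mark that the slide was dipped again after staining. With this mark as a covariate, 521 probes were higher and 710 lower. In such bulk RNA, fewer cells of a type and less RNA per cell cannot be told apart.

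The selected gene itself was checked first. Notch1 had intensities of 50999, 16413, 28473 and 36611 on the 4 arrays of P0 Notch1+ cells and of 9718, 12698, 12126 and 12296 on those of whole retina. The groups did not overlap, and Notch1 was higher in the selected cells (log2 fold change 1.39, SE 0.29, adjusted p = 0.00422). The lowest of the Notch1+ values was the re-dipped replicate 2, and with the mark as a covariate the difference was 0.74 with an adjusted p of 0.133. In the authors' value table it was 0.54 (adjusted p = 0.256).

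**Figure D1:**
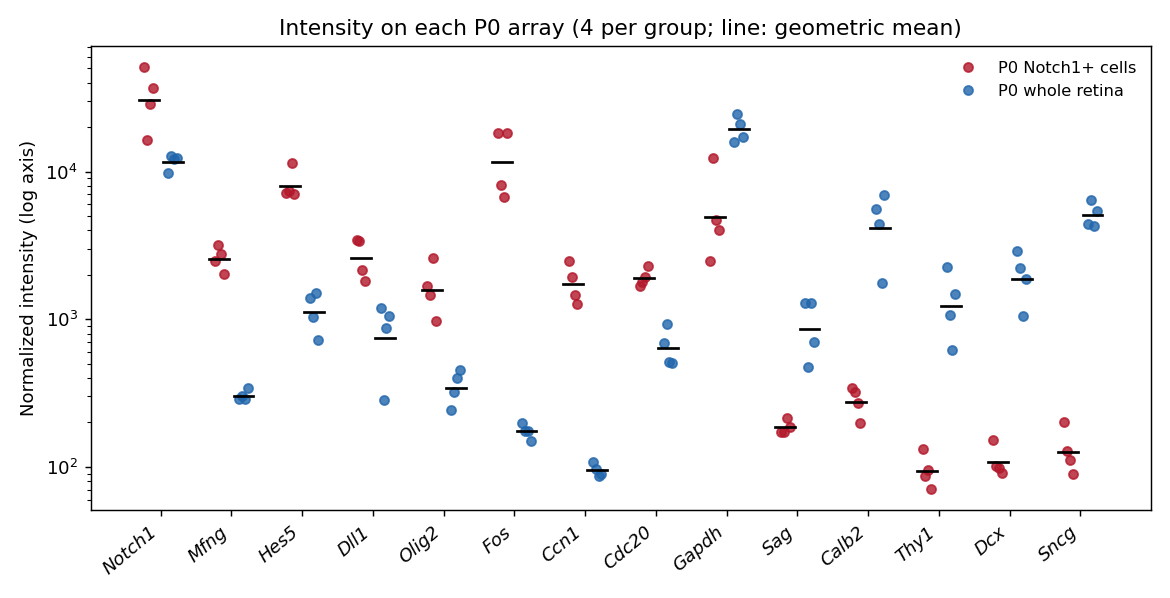
Normalized intensity (log axis) of 14 genes on each P0 array, red for the 4 arrays of Notch1+ cells and blue for the 4 of whole retina, with a line at the geometric mean. All 8 genes from Notch1 to Cdc20 lay higher on every red array than on any blue array, and the 6 genes from Gapdh to Sncg lay lower.

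The largest rise in the Notch pathway lists was that of Mfng, which encodes Manic fringe, a glycosyltransferase that adds sugars to Notch receptors in the Golgi. Its intensities were 2462, 3173, 2771 and 2025 in P0 Notch1+ cells and 287, 301, 288 and 343 in whole retina. The groups lay far apart, a difference of 8.46-fold (log2 fold change 3.08, SE 0.32, adjusted p = 2.99e-05). Lfng and Rfng, which encode the other fringe enzymes, did not pass the test, at 0.03 (adjusted p = 0.937) and -0.28 (adjusted p = 0.737) on the log2 scale. Notch3 was at -0.50 (adjusted p = 0.0864) and Notch4 at -0.27 (adjusted p = 0.317), and Notch2 was not among the tested genes. Thus 2 of 6 tested receptor and fringe genes were higher and none lower, where 8.54% of all tested genes were higher and 11.6% lower.

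Among the ligands, Dll1 and Dll4 were higher, and the median of the 5 tested ligand genes was 0.91 against -0.01 over all genes. Dll1 had intensities of 3464, 3365, 2157 and 1826 in P0 Notch1+ cells against 1183, 285, 877 and 1051 in whole retina (log2 fold change 1.80, SE 0.48, adjusted p = 0.0171). Whole retina replicate 2 was the lowest by a wide margin, and without it the difference was 1.34 (adjusted p = 0.0384). Dll4 had 1059, 867, 626 and 747 against 196, 474, 159 and 241 (log2 fold change 1.73, SE 0.45, adjusted p = 0.0156). Neither gene's groups overlapped, but both calls were lost after adjustment for the re-dip mark, that of Dll1 also in the authors' value table, and both under 1 median over all mouse probes, as was that of Notch1. Dll3, whose product is thought to act inside the cell rather than as a ligand at the surface, had a difference of 0.91 (adjusted p = 0.13), and Jag1 one of 0.39 (adjusted p = 0.169).

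Of the downstream repressors, Hes5 rose most. This direct target of the Notch and Rbpj complex had 7126, 7349, 11359 and 6994 on the Notch1+ arrays and 1402, 1029.6, 1504 and 719 on the whole retina arrays, 7.19-fold more (log2 fold change 2.85, SE 0.40, adjusted p = 0.000289). Every Notch1+ array was above every whole retina array. Hes6, which is known to oppose Hes1 and to favour neuronal differentiation, was higher too (log2 fold change 1.27, SE 0.28, adjusted p = 0.00604), though not after adjustment for the re-dip mark, under any of the scalings to 1 median or 75th percentile or in the authors' value table. Hes1 showed no such difference, with 1764, 2275, 3574 and 1497 in Notch1+ cells and 4416, 2398, 966 and 1249 in whole retina, overlapping values whose difference was 0.19 (SE 0.53, adjusted p = 0.842). Hey1, Heyl and the inhibitor genes Id1 to Id4 did not pass either. Hey2 was lower (log2 fold change -0.85, SE 0.14, adjusted p = 0.000756), a call lost under scaling to the 75th percentile of probes above background on all arrays. Of the 12 tested repressor and target genes 2 were higher and 2 lower. The other lower one was Cdkn1c, which encodes the Cdk inhibitor p57. Its call was lost without any 1 of 5 of the 8 P0 arrays (adjusted p up to 0.0852).

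The promoter of Hes5 is shown because it is the target gene with the largest rise. RefSeq's 250 bases before its start site (GRCm38.p6, chr4:154960673-154960922, plus strand) follow, with matches on either strand to GTGGGAA, a form of the sequence bound by Rbpj, in capitals.

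Hes5: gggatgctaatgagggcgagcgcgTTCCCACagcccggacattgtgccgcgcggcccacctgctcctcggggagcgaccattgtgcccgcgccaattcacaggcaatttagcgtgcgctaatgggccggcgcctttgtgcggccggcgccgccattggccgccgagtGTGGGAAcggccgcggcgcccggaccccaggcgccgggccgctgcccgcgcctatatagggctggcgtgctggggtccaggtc

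The 2 matches span bases -83 to -77 on the gene's own strand and -226 to -220 on the other, counted from the start site. Of the 32851 promoter windows of this length in the table, 5.42% held a match. Of the 12 tested repressor and target genes, 7 had a window, and Hes5 and Hey2 were those with a match, although they moved in opposite directions.

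The machinery that cuts Notch and carries its signal was called about as often as all genes, 19.4% against 20.2%. Of 31 tested genes of the nuclear complex, the secretase and the regulators, 5 were higher and 1 lower, with a median of 0.27. Over the alternatives for background and scaling, 0 to 7 were higher and 0 to 5 lower, and the median ran from -0.34 to 0.415. After adjustment for the re-dip mark 1 was higher and 0 were lower. Tle2, a Groucho-type corepressor that Hes proteins recruit, had 355, 418, 534 and 595 in Notch1+ cells and 216, 267, 267 and 225 in whole retina (log2 fold change 0.94, SE 0.20, adjusted p = 0.00437), and this call was lost under 1 median over all mouse probes. Rbpj itself had low intensities of 207, 179, 137 and 126 and 116, 101, 118 and 123 and did not pass the test (0.48, adjusted p = 0.073).

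Hes proteins repress proneural factors in the textbook scheme. The list tested here is wider and holds other neurogenic factors too. Of its 12 tested genes, 4 were higher in the selected cells and 1 lower. The median was 0.45 and fell to -0.34 under 1 median over all mouse probes. The weakest of the 4 calls was lost without any 1 of 6 of the 8 P0 arrays (adjusted p up to 0.107). Olig2, which marks retinal progenitors close to their last divisions, had 1675, 1451, 2599.6 and 979 in P0 Notch1+ cells and 242, 323, 399 and 450.3 in whole retina, without overlap (log2 fold change 2.20, SE 0.26, adjusted p = 8.62e-05). Neurog2 had 703, 385, 534 and 3468 against 225, 181, 169 and 309 (log2 fold change 1.97, SE 0.52, adjusted p = 0.0163), where replicate 4 alone stood far above the other Notch1+ arrays. Without that array the difference was 1.31 (adjusted p = 0.00758). Atoh7, needed for ganglion cell formation, was higher as well (log2 fold change 1.32, SE 0.29, adjusted p = 0.00668). Neurod2 was lower (log2 fold change -1.05, SE 0.18, adjusted p = 0.00143). Neurod1 and Ptf1a did not pass. The calls of Neurog2 and Atoh7 were lost after adjustment for the re-dip mark and under 1 median over all mouse probes.

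A list of homeobox, Sox and other genes expressed in the developing retina, which also holds Ccnd1 and Sfrp2, was spread around 0. Of 24 tested, 2 were higher and 2 lower, and the median was -0.03. Six3, Lhx2, Sox2 and Sox9 did not pass, with differences between -1.01 and 0.31, and Pax6 came near the threshold (log2 fold change 0.77, SE 0.26, adjusted p = 0.0508). Sox11 was higher (log2 fold change 0.83, SE 0.21, adjusted p = 0.0146), but at -0.074 under 1 median over all mouse probes, and the weaker call for Sox4 (log2 fold change 1.23) was lost without any 1 of 7 of the 8 P0 arrays (adjusted p up to 0.111). Meis2 fell from 865, 623, 615 and 839 in whole retina to 229, 162, 214 and 220.3 in Notch1+ cells (log2 fold change -1.83, SE 0.20, adjusted p = 4.24e-05). Its groups lay clearly apart. Six6, an eye field factor, was lower by a smaller amount (log2 fold change -0.69, SE 0.17, adjusted p = 0.0102), a call lost after adjustment for the re-dip mark.

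Of 22 tested genes of Müller glia and radial progenitors 3 were higher and 2 lower, with a median of -0.20, where 8.54% of all genes were higher. The 3 were Nfia, Nfib and Ccn1, which is also counted among the early response genes below. The call of Nfib (log2 fold change 0.63) was lost without any 1 of 6 of the 8 P0 arrays (adjusted p up to 0.1245). Nfib turned to -0.044 under 1 median over all mouse probes. Nfia, a factor of late progenitors, had 791, 779, 946 and 948 against 464, 559.6, 494 and 505 (log2 fold change 0.77, SE 0.14, adjusted p = 0.00159). Clu, which encodes clusterin, was lower (log2 fold change -2.06, SE 0.24, adjusted p = 6.67e-05), as was Fabp7, the brain lipid-binding protein of radial glia (log2 fold change -1.11, SE 0.29, adjusted p = 0.015). The call of Fabp7 was lost after adjustment for the re-dip mark and that of Nfia in the authors' value table and under both scalings over all mouse probes. Of 17 early temporal factors 4 were higher and of 14 late ones 3, again against 8.54% of all genes, with medians of 0.10 and 0.08. Nfia and Nfib are among the 3 late ones. Over the alternatives for background and scaling, 0 to 4 early and 0 to 3 late ones were higher. The medians then ran from -0.44 to 0.30 and from -0.74 to 0.09.

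The 3 genes with the largest fitted rises, Fos, Egr1 and Ccn1, belong to the early response, a set that cells switch on within minutes of a stimulus without new protein synthesis. Fos, a subunit of the transcription factor AP-1, had 18273, 8137, 6767 and 18276 on the P0 Notch1+ arrays and 198, 176, 175 and 149.9 on the whole retina arrays. Its lowest value in Notch1+ cells was far above its highest in whole retina (log2 fold change 6.07, SE 0.28, adjusted p = 9.06e-08). Egr1, a zinc finger factor of the same response, had 44740.4, 17614, 37308 and 50045 against 622, 715, 788 and 719 (log2 fold change 5.62, SE 0.29, adjusted p = 9.06e-08). Ccn1, which encodes a secreted matrix protein and was above background on none of the whole retina arrays, had 2492, 1931, 1451 and 1272 against 108, 97.4, 86.2 and 90.0 and was at least 13.3-fold higher (adjusted p = 9.06e-08). A bound of this kind is taken against the lowest signal above background on the same arrays.

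Other members of the list moved both ways. Of 44 tested early response genes 16 were higher and 4 lower, against 8.54% and 11.6% of all genes, and the median was 0.41. Over the alternatives for background and scaling 10 to 24 of them were higher, and the median ran from -0.11 to 0.63; after adjustment for the re-dip mark 11 were higher. Egr2 was at least 3.67-fold higher (adjusted p = 2.83e-05). Zfp36, which encodes an RNA-binding protein that destabilizes transcripts, rose by 2.27 on the log2 scale (adjusted p = 8.43e-05), Srf, the factor that switches many of these genes on, by 2.16 (adjusted p = 0.000213), the phosphatase gene Dusp1 by 1.88 (adjusted p = 0.00228) and Jun, the partner of Fos, by 1.81 (adjusted p = 0.000889). Fosb had 2 tested probes that differed, one with a change of 3.31 (adjusted p = 0.000115) and one with 0.44 (adjusted p = 0.117). Ier3 was lower (log2 fold change -1.49, SE 0.36, adjusted p = 0.0104), and Nr4a2 and Trib1, both above background on no Notch1+ array, were at least 1.39-fold and 1.39-fold lower (adjusted p = 0.00209 and 0.00129). Those of Ier3 and Nr4a2 were lost after adjustment for the re-dip mark, and those of Nr4a2 and Trib1 under scaling to 1 median or 75th percentile over the probes above background on all arrays. Heat shock and stress genes showed no such pattern, with 2 of 35 higher and 3 lower and a median of -0.12. Fos and Egr1 differed in the same direction at E14, where the log2 fold changes were 5.65 and 5.05 (adjusted p = 1.72e-06 and 3.39e-06). Whether papain, antibody and column played a part in these rises was not tested.

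Promoters of 3 of these genes are shown because they rose together. They are RefSeq's 250 bases before the start site (GRCm38.p6), with matches on either strand to TGACGT, part of the cyclic AMP response element, or to the CArG box that Srf binds in capitals. Fos lies at chr12:85473640-85473889, plus strand, Ccn1 at chr3:145649986-145650235, minus strand and Srf at chr17:46556163-46556412, minus strand.

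Fos: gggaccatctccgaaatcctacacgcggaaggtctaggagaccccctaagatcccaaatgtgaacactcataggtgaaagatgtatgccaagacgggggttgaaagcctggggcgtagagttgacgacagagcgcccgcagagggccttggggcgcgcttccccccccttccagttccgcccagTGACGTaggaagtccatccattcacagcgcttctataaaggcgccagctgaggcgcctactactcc

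Ccn1: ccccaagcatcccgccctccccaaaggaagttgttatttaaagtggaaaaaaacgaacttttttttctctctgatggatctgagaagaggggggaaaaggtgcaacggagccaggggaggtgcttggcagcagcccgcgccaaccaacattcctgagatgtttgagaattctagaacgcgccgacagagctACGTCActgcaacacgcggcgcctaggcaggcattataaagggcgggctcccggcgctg

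Srf: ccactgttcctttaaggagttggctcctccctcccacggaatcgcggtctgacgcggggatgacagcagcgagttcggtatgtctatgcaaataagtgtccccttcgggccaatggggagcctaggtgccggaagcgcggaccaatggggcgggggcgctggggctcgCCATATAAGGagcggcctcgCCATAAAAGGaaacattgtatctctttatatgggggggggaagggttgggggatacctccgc

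Fos held TGACGT at -66 to -61 on its own strand, Ccn1 at -59 to -54 on the other, and neither held a CArG box in this window. Srf held CArG boxes at -82 to -73 and -62 to -53 and no TGACGT. Over all 32851 windows, 6.47% held TGACGT and 1.47% a CArG box. Of the 16 early response genes that were higher, 12 had at least 1 window (17 windows). TGACGT lay in 9 of these windows (52.9%), among them those of Fos, Ccn1, Egr2 and Dusp1, and a CArG box in 6 (35.3%), those of Egr2, Zfp36 and Srf. Start sites of 1 gene can lie close together, so that its windows share sequence.

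Dividing cells were represented by genes of G2 and mitosis. Of 48 tested, 17 were higher in the selected cells and none lower, and the median was 0.59. Over the alternatives for background and scaling, 4 to 22 were higher, 0 to 2 lower, and the median ran from -0.09 under 1 median over all mouse probes to 0.69; after adjustment for the re-dip mark 6 were higher. Cdc20, an activator of the anaphase-promoting complex, had 1683, 1794, 1939 and 2284 in P0 Notch1+ cells and 687, 929.9, 513 and 504 in whole retina (log2 fold change 1.58, SE 0.24, adjusted p = 0.000485). Kifc5b, a motor protein of the kinesin-14 family, had 6017, 2662, 3578 and 3530.1 against 579.6, 613, 900.4 and 859 (log2 fold change 2.38, SE 0.40, adjusted p = 0.00108). Neither gene's groups overlapped. Incenp, a subunit of the chromosomal passenger complex, rose by 1.68 on the log2 scale (adjusted p = 0.0116) and Ccnb1, which encodes cyclin B1, by 1.45 (adjusted p = 0.00298), calls that were lost after adjustment for the re-dip mark and under 1 median over all mouse probes. Top2a and Ccna2 did not pass, at 0.40 (adjusted p = 0.403) and 0.15 (adjusted p = 0.776).

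Replication genes differed less. Of 43 tested, 4 were higher, close to the 8.54% of all genes, and none lower, with a median of 0.14, and 1 to 12 were higher and 0 to 9 lower over the alternatives for background and scaling. Lig1, the DNA ligase that joins Okazaki fragments, had 2619, 2351, 2794 and 2602 in Notch1+ cells and 617, 437, 815 and 1175 in whole retina (log2 fold change 1.86, SE 0.29, adjusted p = 0.000575), while Pcna was at 0.66 (adjusted p = 0.272) and Mcm2 at 0.38 (adjusted p = 0.578). Of 21 cyclin D and E, E2f and Cdk inhibitor genes, 4 were higher and 1 lower. E2f2, an activating E2f factor, stood out with 4190.4, 3544, 4282 and 3029 against 1152, 1543, 1219 and 1599.6 (log2 fold change 1.45, SE 0.17, adjusted p = 6.58e-05), and its groups lay clearly apart. Ccnd1, the main cyclin of retinal progenitors, had nearly the same intensities in both groups, 52068, 53000.5, 39996 and 64534 and 42333, 51000.2, 53800.4 and 51000.5 (0.07, adjusted p = 0.819). Of 46 histone genes 9 were lower and none higher. This is 19.6% called, close to the 20.2% of all genes, of which 11.6% were lower. Over the alternatives for background and scaling, 8 to 24 were lower and 0 to 4 higher. The largest fall was that of H1f2, which had 192, 261, 362 and 262 in Notch1+ cells and 4334, 2435, 5586 and 2425 in whole retina (log2 fold change -3.72, SE 0.41, adjusted p = 4.71e-05).

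**Figure D2:**
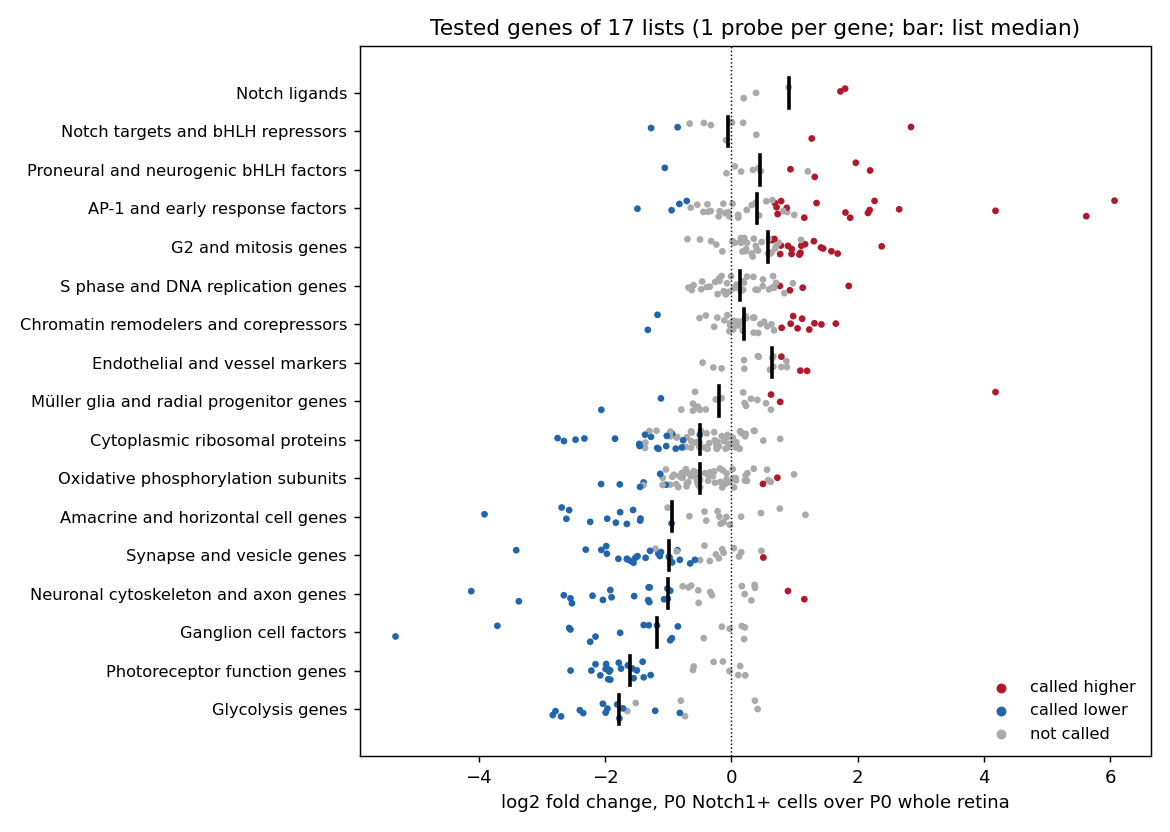
Log2 fold change of P0 Notch1+ cells over P0 whole retina (horizontal axis) for the tested genes of 17 lists, 1 point per gene, red where called higher, blue where called lower and grey where not called; black bars are list medians and the dotted line the median of all tested genes, -0.01. The early response, mitosis and ligand lists lie to the right and the neuronal, photoreceptor and glycolysis lists to the left, with medians down to -1.77.

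Many genes of differentiated neurons were lower. Of 19 tested ganglion cell genes, 13 were lower and none higher, with a median of -1.18. Above background on no P0 Notch1+ array were 13 of the 19, and 2 of these on no P0 array. A gene bright only in whole retina could come out lower but hardly higher. On the P0 arrays, 1396 tested probes were above background in whole retina only and 270 in Notch1+ cells only. Also dim on all Notch1+ arrays were 10 of 28 photoreceptor function genes and 9 of 27 amacrine and horizontal cell genes. The same held for 11 of 38 synapse and vesicle genes and 10 of 26 channel genes. Sncg, which encodes gamma-synuclein, had 202, 127, 111 and 90.2 in Notch1+ cells and 4402, 6412, 4259 and 5371 in whole retina and was at least 31.8-fold lower (adjusted p = 3.05e-07). Thy1, a surface protein of ganglion cells, had 132, 86.9, 95.6 and 70.5 against 2257, 1067, 619 and 1489.9, at least 8.51-fold lower (adjusted p = 6.1e-06). No Notch1+ array was above background for either gene. Isl1, a factor of ganglion, amacrine and bipolar cells, was at least 4.06-fold lower (adjusted p = 0.00283), Ebf1 at least 4.8-fold (adjusted p = 0.000155) and Gap43, the growth cone protein, at least 5.72-fold (adjusted p = 0.000118). In the authors' value table, in which background-subtracted values under 1 were set to 1 before scaling, the ganglion cell median was -3.14. Scaling to 1 median and to the 75th percentile of probes above background on all arrays gave medians of -0.56 and -0.48. Under these scalings 1 and 3 ganglion cell genes were higher, and 10 and 9 lower. After adjustment for the re-dip mark 10 were lower and none higher.

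Of 32 tested cytoskeletal and axonal genes, 18 were lower and 2 higher, with a median of -1.01. After adjustment for the re-dip mark 7 were lower and 1 higher, and over the alternatives for background and scaling 17 to 24 were lower. Dcx, the microtubule-associated protein doublecortin of young neurons, had 152, 101, 98.2 and 91.6 in Notch1+ cells and 2887, 2215, 1054 and 1861 in whole retina (log2 fold change -4.12, SE 0.35, adjusted p = 6.1e-06). Mapt, which encodes tau, had 260.5, 294, 233 and 218 against 2082, 3503, 1280.4 and 4681 (log2 fold change -3.36, SE 0.35, adjusted p = 3.19e-05). Neither gene's values overlapped between groups. Stmn2, Tubb2a and Elavl4 were lower, with log2 fold changes of -2.65, -2.52 and -2.20 (adjusted p = 0.000305, 0.0104 and 0.000682). Tubb3, the tubulin often used to label neurons, did not pass the test (0.38, adjusted p = 0.183), and Marcks, a substrate of protein kinase C, was higher (log2 fold change 1.16, SE 0.30, adjusted p = 0.0159). The directions of Tubb3 and Marcks turned, to -0.64 and -0.0051, under 1 median over all mouse probes. The call of Marcks was also lost under the other scalings to 1 median or 75th percentile and in the authors' value table. That of Ncam1, the other higher gene, was lost without any 1 of 6 of the 8 P0 arrays (adjusted p up to 0.14). The call of Tubb2a was lost after adjustment for the re-dip mark. Without whole retina replicate 2, the log2 fold change of Tubb2a was -3.32 (adjusted p = 3.34e-05).

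Of 27 tested amacrine and horizontal cell genes, 13 were lower and none higher, with a median of -0.95. Calb2, which encodes calretinin, had 344, 319, 269.7 and 198 against 5547, 4398, 1765 and 6891 (log2 fold change -3.91, SE 0.37, adjusted p = 1.54e-05). Gad1, the enzyme that makes GABA, had 113, 96.1, 91.6 and 81.5 against 610.0, 585, 507 and 766 and was at least 4.25-fold lower (adjusted p = 3.05e-07). Tfap2a, an amacrine cell factor, had 196, 180.4, 186 and 286 against 1669.5, 1165, 977 and 1376 (log2 fold change -2.61, SE 0.19, adjusted p = 1.9e-06). None of the 3 overlapped between groups. Ptf1a and Foxn4, which act in progenitors committed to these fates, did not pass the test, at 0.15 (adjusted p = 0.766) and 1.17 (adjusted p = 0.0959).

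Synaptic genes and ion channels, which mark maturing neurons, came next. Of 38 synapse and vesicle genes, 24 were lower and 1 higher, with a median of -0.98. Syt4, a synaptotagmin, had 160.0, 149, 186 and 277 in Notch1+ cells and 2110.0, 1817, 1142 and 3530.1 in whole retina (log2 fold change -3.40, SE 0.38, adjusted p = 4.97e-05). Snap25 and Syp, of the synaptic vesicle machinery, were at -1.97 (adjusted p = 0.00911) and -1.98 (adjusted p = 4.16e-05). Of 26 voltage-gated channel genes, 12 were lower and 1 higher. Cacng2, which encodes stargazin, was at least 4.06-fold lower (adjusted p = 5.39e-05). Of 39 axon guidance genes 2 were higher and 3 lower, with a median of -0.12, and the repellent ligand Sema3a was at least 1.89-fold lower (adjusted p = 0.000452).

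Of 28 tested photoreceptor function genes, which encode phototransduction and outer segment proteins, 20 were lower and none higher, with a median of -1.60, and 19 to 22 were lower over the alternatives for background and scaling and 18 after adjustment for the re-dip mark. Sag, which encodes rod arrestin, had 172, 172, 214 and 188 in P0 Notch1+ cells and 1291, 473, 1285 and 699 in whole retina (log2 fold change -2.21, SE 0.27, adjusted p = 8.68e-05). Pde6g, a subunit of the rod phosphodiesterase, had 144, 155, 147 and 126 against 378, 1768, 1329 and 540.2 (log2 fold change -2.54, SE 0.37, adjusted p = 0.00039). Gngt2, a transducin subunit of cones, had 648, 1590.2, 759.6 and 1095 against 5036, 2205, 5633 and 5314 (log2 fold change -2.15, SE 0.34, adjusted p = 0.000677). The groups of all 3 lay apart. Recoverin (Rcvrn) was above background on no Notch1+ array and was at least 1.98-fold lower (adjusted p = 1.49e-06). Gnat1 did not pass (-0.03, adjusted p = 0.918) and was at 0.61 under scaling to the 75th percentile of probes above background on all arrays.

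Of the 13 tested factors that set photoreceptor fate, 1 was higher and 4 were lower, where 8.54% of all genes were higher and 11.6% lower. Leaving out any 1 P0 array left 1 to 4 lower, and adjustment for the re-dip mark left 2. Otx2, which acts at the start of photoreceptor and bipolar fate, had 35937, 32802, 33743 and 37307 in Notch1+ cells and 28786, 28239.9, 35084 and 35085 in whole retina, overlapping values with a difference of 0.14 (adjusted p = 0.567), which turned to -0.78 under 1 median over all mouse probes. Prdm1 and Neurod1 were likewise not called (log2 fold changes 0.02 and 0.06, adjusted p = 0.957 and 0.926), and Prdm1 turned to -0.63 under the same scaling. Crx, which acts after Otx2, had 355, 552, 598 and 708 against 1124, 1682, 2744 and 588 (log2 fold change -1.30, SE 0.43, adjusted p = 0.0463), and Nrl, the rod factor, 843, 2272, 1514 and 1387 against 1544, 2455, 6203 and 5011 (log2 fold change -1.22, SE 0.39, adjusted p = 0.0436). Both sets of values overlapped. The call of Crx was lost without any 1 of 7 of the 8 P0 arrays (adjusted p up to 0.13). That of Nrl was lost without any 1 of 5 of them (adjusted p up to 0.124). Both calls were also lost after adjustment for the re-dip mark. Rxrg, a retinoid receptor of cones, was lower without overlap (log2 fold change -1.92, SE 0.16, adjusted p = 5.17e-06). The circadian repressor Nr1d1 was the 1 that was higher (log2 fold change 1.34, SE 0.23, adjusted p = 0.00102). Of 10 bipolar genes 3 were lower and 0 higher, where 11.6% of all genes were lower. Above background on no P0 Notch1+ array were 5 of the 10. The call of Lhx4, 1 of the 3, was lost without any 1 of 7 of the 8 P0 arrays (adjusted p up to 0.0983). Its direction turned under scaling to 1 median or 75th percentile of probes above background on all arrays. Over the alternatives for background and scaling, 2 to 5 bipolar genes were lower and 0 to 2 higher.

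Sag's promoter is shown as an example of the list. It is RefSeq's 250 bases before the start site (GRCm38.p6, chr1:87803430-87803679, plus strand), with the match to TAATCC, a sequence that Crx and Otx2 bind, in capitals.

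Sag: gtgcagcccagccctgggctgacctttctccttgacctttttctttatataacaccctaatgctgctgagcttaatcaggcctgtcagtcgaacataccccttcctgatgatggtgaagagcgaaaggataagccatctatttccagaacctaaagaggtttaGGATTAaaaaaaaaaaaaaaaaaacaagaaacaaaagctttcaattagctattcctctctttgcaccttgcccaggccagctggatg

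The match lay at -87 to -82 on the other strand. Of the 20 photoreceptor function genes that were lower, 15 had windows (18 in all), and 6 of these windows (33.3%) held TAATCC, against 6.25% of all windows.

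Genes of energy metabolism were unevenly affected. Of 19 tested glycolysis genes 13 were lower and none higher, with a median of -1.77, and 7 were lower after adjustment for the re-dip mark. Tpi1, triosephosphate isomerase, had 1387, 2733, 5956 and 1023 in Notch1+ cells and 17052, 12192, 16412 and 15217 in whole retina (log2 fold change -2.78, SE 0.42, adjusted p = 0.000488). Slc2a3, a glucose transporter of neurons, had 414, 423, 248 and 249 against 1753, 2248, 1569 and 3063 (log2 fold change -2.69, SE 0.26, adjusted p = 1.89e-05). Gapdh, often used as a reference gene, had 2459, 12297, 4701 and 4002 against 15925, 24415, 21071 and 17241 (log2 fold change -1.99, SE 0.36, adjusted p = 0.00174). No group overlapped the other, although the re-dipped replicate 2 was the highest Notch1+ value for Gapdh, and with the mark as a covariate its adjusted p was 0.0649. Of 75 ribosomal protein genes 19 were lower and none higher (median -0.50), where 11.6% of all genes were lower; 16 to 53 were lower over the alternatives for background and scaling, 6 after adjustment for the re-dip mark, and 5 were higher under cyclic loess. Of 68 oxidative phosphorylation subunits 8 were lower, a share close to that of all genes, and 2 higher (median -0.50), with 7 to 43 lower over the alternatives for background and scaling and 3 after adjustment for the re-dip mark. Rps2 had 2262, 3146, 3184 and 2687 against 12379.8, 22297, 14146 and 14509.8 (log2 fold change -2.47, SE 0.21, adjusted p = 5.82e-06), and Atp5b, of the mitochondrial ATP synthase, 3651, 3423, 7149.6 and 4769 against 17362, 24709.6, 17240.3 and 17482 (log2 fold change -2.06, SE 0.23, adjusted p = 4.71e-05). Ribosomal protein genes have many near-identical pseudogenes that their probes may also detect. Of 15 housekeeping genes 2 were higher and 4 lower, and scan day, which is shared with the groups, cannot be told apart from any of these shifts.

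Of 40 chromatin remodeler and corepressor genes 9 were higher and 2 lower (median 0.20), where 8.54% of all genes were higher and 11.6% lower. Of 52 splicing factors 5 were higher, close to the share of all genes, and 2 lower (median 0.43), and 0 to 14 were higher over the alternatives for background and scaling. Brpf1, a scaffold of histone acetyltransferases, had 2657, 2943, 2933 and 2627 in Notch1+ cells and 920.4, 772, 1277 and 676 in whole retina (log2 fold change 1.65, SE 0.24, adjusted p = 0.000362). Brd7, a bromodomain subunit of the PBAF remodeler, was at 1.43 (adjusted p = 0.000476) and Chd2 at 1.32 (adjusted p = 0.00132). Among long non-coding RNAs, Meg3, an imprinted transcript, had 11647, 7697, 7991 and 15926 against 1588, 529.8, 1909 and 1667 (log2 fold change 3.01, SE 0.40, adjusted p = 0.000207). Miat had 37305, 17054, 19915 and 41332 against 3817, 1749, 5246 and 5214 (log2 fold change 2.87, SE 0.43, adjusted p = 0.000491). Both were among the 15 largest rises, which were picked without overlap between groups.

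In the signalling lists single receptors stood out. Igf1r, the receptor of insulin-like growth factors, had 1289, 1147, 1861 and 1369 in Notch1+ cells and 188, 184, 414 and 335 in whole retina (log2 fold change 2.40, SE 0.39, adjusted p = 0.000821), while the ligand gene Igf2 was lower (log2 fold change -1.77, SE 0.36, adjusted p = 0.00366). Of 36 FGF, BMP and Hedgehog genes 6 were higher and 3 lower, where 8.54% of all genes were higher and 11.6% lower. Over the alternatives for background and scaling, 0 to 10 were higher and 1 to 10 lower, and the median ran from -0.52 to 0.22. Bmpr1a, a type I BMP receptor, had 2386, 2802, 1631 and 2093 against 753, 645, 1040.5 and 597 (log2 fold change 1.56, SE 0.30, adjusted p = 0.00303). Fgf12 was at least 2.3-fold lower (adjusted p = 5.39e-05). Of 27 Wnt genes only Nkd1, an inhibitor of the pathway, passed (log2 fold change 1.28, SE 0.28, adjusted p = 0.00632). The calls of Igf2 and Nkd1 were lost after adjustment for the re-dip mark, and those of Bmpr1a and Nkd1 under 1 median over all mouse probes.

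Several of the largest changes lay outside the lists. Gcnt1, a glycosyltransferase that branches O-linked sugars, had 2802, 2675, 2733 and 1501 in Notch1+ cells and 235, 195, 191 and 212 in whole retina (log2 fold change 3.50, SE 0.23, adjusted p = 8.53e-07). Sstr2, a somatostatin receptor, had 3515, 6970.0, 4038 and 5159 against 1119, 347, 804 and 504 (log2 fold change 2.92, SE 0.37, adjusted p = 0.000126). These 2 genes, too, were picked among probes without overlap. Anks1 and Dgkh, a diacylglycerol kinase, rose by 2.36 and 2.35 (adjusted p = 0.00178 and 0.000146). Adrb1, the beta-1 adrenergic receptor, was above background on no Notch1+ array, with 79.4, 98.6, 74.2 and 74.1 against 754, 856, 1183 and 693, and was at least 5.95-fold lower (adjusted p = 9.06e-08). Vstm2l had 217, 239, 155 and 124 against 4126, 3401, 2106 and 5492 (log2 fold change -4.33, SE 0.29, adjusted p = 1.05e-06). Ly6h and Gnao1, the latter a G protein subunit of neurons, were lower, with log2 fold changes of -3.87 and -3.64 (adjusted p = 5.18e-07 and 2.14e-05). Probes for Pcdha12, Pcdha2 and Pcdha9 were lower, with log2 fold changes of -3.33, -3.26 and -3.13 (adjusted p = 0.000289, 2.69e-05 and 3.08e-05), but these protocadherin genes share their last exons and may give 1 common signal. Rplp1, also among the largest falls, had 1 probe with a change of -3.32 (adjusted p = 3.44e-05) and a brighter one with -0.63 (adjusted p = 0.297).

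Cells from outside the neural retina were looked for through their markers. Of 17 tested vessel markers 3 were higher and none lower, with a median of 0.65, where 8.54% of all genes were higher, and 1 to 12 were higher over the alternatives for background and scaling. Their summed intensity was 5040 to 10000 on the Notch1+ arrays and 3852 to 4366 on the whole retina arrays. Cldn5, a tight junction protein of vessels, had 1993, 3021, 2586 and 2179.5 in Notch1+ cells and 941, 997, 1552 and 1129 in whole retina (log2 fold change 1.09, SE 0.20, adjusted p = 0.00175), although not in the authors' value table or under 1 median over all mouse probes. Tie1, above background on no whole retina array, was at least 1.51-fold higher (adjusted p = 0.0142), while Cdh5 and Kdr did not pass (log2 fold changes 0.79 and 0.20, adjusted p = 0.319 and 0.578). Pecam1, an adhesion protein of vessel cells, was called as well (log2 fold change 1.20, SE 0.38, adjusted p = 0.04), but not without any 1 of 6 of the 8 P0 arrays (adjusted p up to 0.107). Endothelial cells also use Notch1 and Dll4, and the part of vessel cells in the rises of Dll4 and of Notch1 was not tested. Microglial markers had 1 of 7 lower and none higher, red blood cell markers none of 6 called, lens genes none of 9, pigment epithelium genes 2 of 6 lower, and of 6 astrocyte and optic nerve markers Pdgfra was lower (log2 fold change -1.18, SE 0.19, adjusted p = 0.000851) and Olig2, which progenitors also express, higher.

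**Figure D3:**
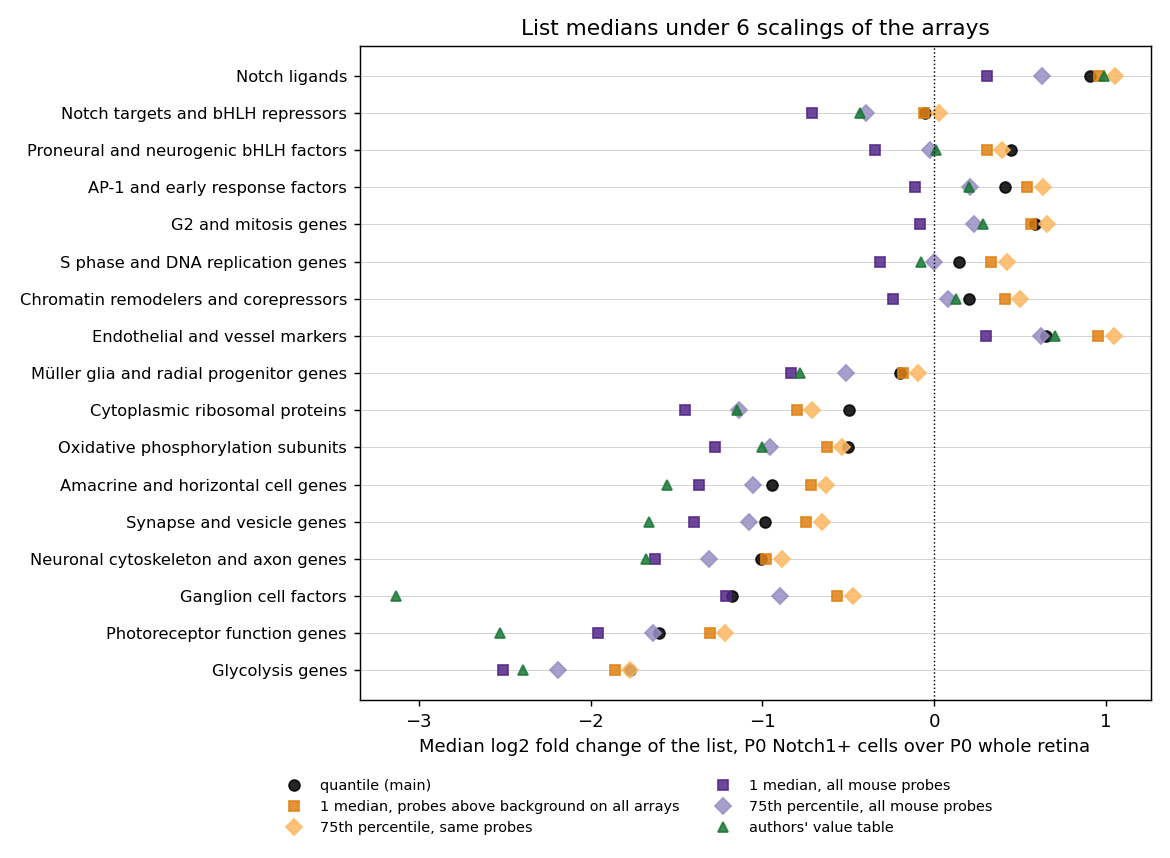
Median log2 fold change of the tested genes of 17 lists (horizontal axis) under 6 scalings of the arrays, 1 symbol per scaling. The neuronal, photoreceptor, glycolysis, ribosomal and oxidative phosphorylation lists stay below 0 and the ligand and vessel lists above it under all 6, while the mitosis, early response, proneural, S phase and chromatin lists fall below 0 under 1 median over all mouse probes.

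The last question was whether the difference at P0 is that seen at E14. The change from whole retina to Notch1+ cells was itself tested between the stages, and it differed for 338 probes (2.47%) and, counted by gene, for 250 of 8881 (2.81%). The E14 arrays were all scanned on a day of their own, so that for these stage differences scan day could not be separated from stage. Of the photoreceptor function genes 12 of 28 were called, with a median log2 fold change of -1.60 at P0 and -0.07 at E14. A gene dim in both groups at E14 comes out near 0 there. Signal above background at E14 is not given here for these genes or for the single genes below. Their stage differences therefore need not mean that the relation of Notch1+ cells to whole retina changed. Amacrine and horizontal cell genes had 5 of 27 called, ganglion cell genes 5 of 19, bipolar genes 4 of 10 and glycolysis genes 4 of 19. The list of homeobox, Sox and other progenitor genes had 5 of 24, Sfrp2 among them. The Notch pathway lists had none, and Hes5, Mfng and Notch1 had E14 log2 fold changes of 2.34, 1.36 and 1.49 (adjusted p = 0.00878, 0.0438 and 0.0174).

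Gcnt1 had the largest stage difference toward P0, 3.38 on the log2 scale (adjusted p = 0.000401) with an E14 log2 fold change of 0.12. Igf1r, Meg3 and Lig1 differed by 2.69, 2.64 and 2.62 (adjusted p = 0.0337, 0.0423 and 0.00929), and Ccn1, higher at both stages, by 1.72 (adjusted p = 0.017). In the other direction Thy1 differed by -3.57, H1f2 by -3.48, Adrb1 by -2.93 and Gad1 by -2.55 (adjusted p = 0.00353, 0.0139, 0.000235 and 0.000235), with E14 log2 fold changes between -0.47 and -0.13. Igf2 had a log2 fold change of 0.93 at E14 and -1.77 at P0 (stage difference -2.69, adjusted p = 0.0228). Otx2 was higher in E14 Notch1+ cells, by 1.61 (adjusted p = 0.000291), and not called at P0, a stage difference of -1.46 (adjusted p = 0.00851). Sfrp2, a secreted Wnt antagonist, was lower at E14, at -2.21 on the log2 scale (adjusted p = 0.00425), and not called at P0, at 0.30 (adjusted p = 0.568), a stage difference of 2.51 (adjusted p = 0.0228). Rps2, Atp5b, Gapdh and Ppia, all lower at P0, had stage differences of -2.10, -2.41, -2.28 and -1.37 (adjusted p = 0.0059, 0.00481, 0.0458 and 0.0345).

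**Figure D4:**
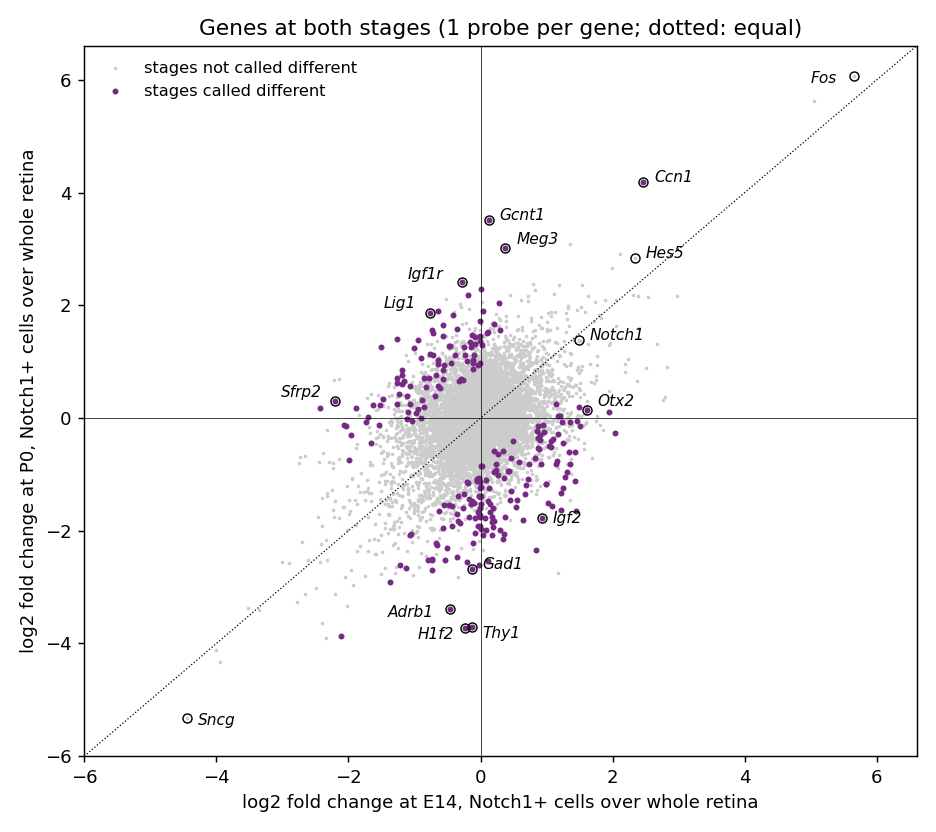
Log2 fold change of Notch1+ cells over whole retina at E14 (horizontal axis) and at P0 (vertical axis) for the 8881 tested genes, 1 probe each; purple marks the 250 genes whose difference was called different between the stages, and the dotted line marks equal differences. Fos, Sncg and Hes5 lie near the dotted line, whereas Gcnt1, Igf1r, Thy1 and Adrb1 lie near 0 at E14 and far from it at P0.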

How the data were processed

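Biotin-labeled cRNA of each sample was hybridized to 1 MEEBO array of 70-mer oligonucleotides and stained with Streptavidin-Alexa-647. The deposited scanner files hold median foreground and local background intensities per spot, not normalized between arrays. The deposited value table holds log2 values, made by the authors from background-subtracted medians, of which those under 1 were set to 1 before multiplication by 1 factor per array (0.613 to 1.41 as recovered here); 34248 of its 34279 rows matched a probe, and how the factors were chosen is not given in the sources used here. Background was corrected with normexp (offset 50), mouse probes were quantile normalized and log2 values were fitted with limma 3.58.1 in R 4.3.3, with 4 group means over 14 arrays, empirical Bayes moderation and Benjamini-Hochberg adjustment over 13683 probes. Spots marked bad were left out. Above background means a foreground over the local background by 2 SD. Where a group was dim on all arrays, "at least N-fold" compares group means with, per array, the higher of the dim probe's own value and the lowest signal above background. Probes were named through RefSeq accessions (22987), gene IDs (443) or symbols (144), and 10738 mouse probes had no name here. The design took its samples and groups from the labels; 4 against 4 arrays limit the precision. The fit was tested on simulated data with known changes. Members, gene lists and alternatives were chosen with earlier results of these data known. Named by rule were Notch1, the 15 largest rises and falls without overlap, up to 3 called members each way per list, all members of 6 lists and the 10 largest stage differences each way; not all are printed, and 20 other genes (Ccna2, Ccnb1, Cdh5, Dusp1, Elavl4, Gap43, Gnat1, Jun, Kdr, Mcm2, Pcna, Rbpj, Rcvrn, Snap25, Srf, Syp, Top2a, Tubb2a, Tubb3 and Zfp36) were named after their values were seen. Other background corrections, scalings, filters, samples and covariates, a replicate block and the methods' t-test were run as alternatives.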

Additional observations from a re-analysis of the deposited data

Results flagged for a closer look

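In 17 of 260 groups of 4 arrays, over the 130 genes named here, 1 array stood apart on the log2 scale, its gap to the nearest of the others taking more of the group's range than Dixon's critical value allows. Chance gives this in about 1 of 20 groups. For P0 Notch1+ cells replicate 4, the gap over the range was 0.926 for Gcnt1 (lowest), 0.849 for Cdkn1c (highest) and 0.862 for Brd7 (highest). For P0 whole retina replicate 2, the gap over the range was 0.856 for Meg3 (lowest), 0.895 for Rfng (lowest), 0.904 for Nr1d1 (lowest), 0.881 for Gngt2 (lowest), 0.961 for Atp5b (highest) and 0.847 for Tubb2a (lowest). For P0 Notch1+ cells replicate 3, the gap over the range was 0.898 for Hes5 (highest), 0.898 for Neurod1 (lowest), 0.866 for Six6 (lowest) and 0.912 for Marcks (lowest). For P0 Notch1+ cells replicate 2, the gap over the range was 0.923 for Clu (highest) and 0.841 for Cdh5 (highest). For P0 Notch1+ cells replicate 1, the gap over the range was 0.889 for Fgf12 (highest). For P0 whole retina replicate 3, the gap over the range was 0.932 for Elavl4 (lowest).

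The change from whole retina to Notch1+ cells differed between P0 and E14 for 24 of the named genes (limma, adjusted p under 0.05). The P0 minus E14 difference was above 0 for Ccn1 (1.72), Gcnt1 (3.38), Meg3 (2.64), Igf1r (2.69), Sfrp2 (2.51) and Lig1 (2.62). It was below 0 for Ly6h (-1.75), H1f2 (-3.48), Thy1 (-3.57), Adrb1 (-2.93), Meis2 (-2.04), Otx2 (-1.46), Gad1 (-2.55), Tfap2a (-1.40), Pde6g (-2.65), Sag (-2.11), Trib1 (-1.05), Rps2 (-2.10), Atp5b (-2.41), Slc2a3 (-1.96), Igf2 (-2.69), Gapdh (-2.28), Ppia (-1.37) and Rcvrn (-2.07). E14 and P0 arrays were scanned on different days, so that scan day and stage cannot be told apart in these values.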

How the results depend on the processing

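All 2694 probes called at P0 kept their direction when any 1 P0 array was left out and under cyclic loess. They also did so after adjustment for the re-dip mark and with a replicate block. Under the scalings and the authors' value table, 2522 to 2687 did. Direction alone says little here, because the probes were selected for a difference on the same arrays. Called again in the same direction were 1116 after adjustment for the re-dip mark, 2154 with the block and 2395 under cyclic loess. Leaving out 1 P0 array kept 1977 to 2248 of the calls. The scalings and the authors' value table kept between 1785 and 2080. Higher and lower probes numbered 3418 and 1119 with 1 median and 4267 and 968 with the 75th percentile of probes above background on all arrays, 320 and 3778 with 1 median over all mouse probes, 780 and 2273 in the authors' value table, 2035 and 2414 without a filter for dim probes, 521 and 710 after adjustment for the re-dip mark, 754 and 963 by the methods' t-test after Benjamini-Hochberg adjustment (1955 and 2127 unadjusted), and 529 and 773 where a call also needed a fold over 2. With the 10 re-dipped arrays alone, which hold 1 P0 Notch1+ array assumed to vary like the other groups, they were 150 and 222. This alternative and both scalings over all mouse probes were chosen after seeing the data. Stage differences numbered 703 (75th percentile, probes above background on all arrays), 591 (1 median, all mouse probes), 586 (no filter), 194 (adjusted for the re-dip mark) and 0 (re-dipped arrays alone). Leaving out 1 P0 array gave 870 to 1145 higher, 1140 to 1394 lower and 203 to 326 stage differences, and without P0 Notch1+ replicates 3 and 4 in turn the last was 225 and 203.

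Equal replicate numbers correlated at -0.0013, 0.0258, 0.0841 and 0.0203 in their deviations from the group means, so that the numbers are not taken to pair the samples; a replicate block gave 1021 higher, 1288 lower and 59 stage differences.

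Directions turned for Lhx4 (0.077) and Cox7a2l (-0.30) under 1 median, and for Lhx4 (0.17), Chac1 (0.085), Cox7a2l (-0.22) and Gnat1 (0.61) under the 75th percentile, of probes above background on all arrays. Under 1 median over all mouse probes they turned for Sox11 (-0.074), Otx2 (-0.78), Nfib (-0.044), Marcks (-0.0051), Ncam1 (-0.34), Prdm1 (-0.63), Sdhc (-0.48), Cox7a2l (-0.96), Psmd1 (-0.33), Hnrnph1 (-0.045), Vamp1 (-0.079) and Tubb3 (-0.64). Under the 75th percentile of the same probes they turned for Ncam1 (-0.019), Sdhc (-0.17), Cox7a2l (-0.64) and Psmd1 (-0.015), in the authors' value table for Sdhc (-0.11) and Cox7a2l (-0.58), and with the re-dipped arrays alone for Dct (0.0087). The causes were not tested. Dim probes, 560 of those called being above background on no P0 Notch1+ array, limit how large the falls can be shown to be.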
